A study of Bubalus bubalis with 6 samples.

Results

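The 10 genes described here encode the transforming growth factor beta (TGF-β) ligands (TGFB1, TGFB2 and TGFB3), their receptors (TGFBR1, TGFBR2 and TGFBR3) and the latent TGF-β binding proteins (LTBP1, LTBP2, LTBP3 and LTBP4). They were taken by symbol from the table of 24616 genes, where each of the 10 is listed once. Their expression was compared between proliferating and differentiating muscle stem cells (MuSCs) of the buffalo (Bubalus bubalis), the cells that divide in muscle and then fuse into myotubes. The GM samples (n = 3) were MuSCs in growth medium with fetal bovine serum, labelled proliferation. The DM samples (n = 3) were MuSCs moved near confluence to differentiation medium with little horse serum, labelled differentiation. In both groups the cells were primary cultures from fetal longissimus muscle, without any genetic change. The labels do not give the day of harvest, nor whether the 3 samples of a group were separate cultures or animals. The p-values therefore set the group difference against the spread between these samples, which may be technical.

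TGF-β is secreted as an inactive dimer. Each ligand is cut from its propeptide inside the cell, but the propeptide stays wrapped around it, and in most cells a latent binding protein is joined to this complex and anchors it in the extracellular matrix. Integrins, thrombospondin and proteases release the ligand, which binds TGFBR2 and, through it, the kinase TGFBR1, so that SMAD2 and SMAD3 are phosphorylated and enter the nucleus with SMAD4. TGFBR3 (betaglycan) is a co-receptor that presents ligand, above all TGF-β2, to TGFBR2. In muscle, active TGF-β is known as an inhibitor of myoblast differentiation and fusion and as an inducer of matrix genes.

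Each sample held 35615864 to 40305237 counts on genes. All 10 genes passed the minimum of 10 counts in total, with 630 to 21379 counts in a sample. Expression is given as CPM, counts scaled to the TMM-normalised library size, and log2FC is the log2 ratio of DM to GM with its standard error (SE) from the model fit. Tests used edgeR's quasi-likelihood test on the counts of all 15576 tested genes with Benjamini-Hochberg adjustment. A gene was called where log2FC was beyond 1 in either direction and the adjusted p-value was below 0.05. Among the libraries, DM replicate 3 stood apart from DM replicates 1 and 2, so values without it are given where it matters. Fibroblast markers were also higher in DM samples, with a summed level of 1072 to 1104 CPM in GM samples and 1887 to 2298 CPM in DM samples. Of these, 4 of 6 (LUM, THY1, MFAP5 and PI16) were called higher, but PI16 was under 1 CPM in all 6 samples, with 1 to 17 counts. Calls in this and the other marker lists stand beside 25.3% of all tested genes called, 15.0% higher and 10.3% lower. Muscle markers summed to 2777 to 3311 CPM in GM samples and 5359 to 7372 CPM in DM samples, with 4 of 8 called higher (MYOG, CKM, MYH3 and ACTA1) and MYF5 lower. Pericyte and smooth muscle markers (1 of 6 called, higher) summed to 1495 to 1589 CPM and to 927 to 1107 CPM. That sum was mostly ACTG2, with a mean of 1419 CPM in the GM group and 852 CPM in the DM group. The means of MYH11, KCNJ8, NOTCH3 and CSPG4 were higher in the DM group, but NOTCH3 and CSPG4 did not pass (adjusted p = 0.0816 and 0.240 in edgeR). For CSPG4 the higher mean came from DM replicate 3 alone (147 CPM). DM replicates 1 and 2 (58.5 and 53.6 CPM) were below every GM sample. Markers of other cell types were low. None was at 0 in every sample, but 5 of 6 adipocyte, 3 of 6 endothelial and 5 of 6 leukocyte markers were under 1 CPM in all 6 samples. The summed levels over all 6 samples lay between 2.40 and 8.35 CPM for adipocyte markers. Of these 5 were tested and 2 called, both higher, though FABP4 had at most 16 counts in a sample. Endothelial markers lay between 4.04 and 6.13 CPM (6 tested, 4 called, 1 higher and 3 lower). Leukocyte markers lay between 2.68 and 6.92 CPM (4 tested, 1 called, lower). The samples are bulk cultures, in which fewer cells of a type and less RNA per cell cannot be told apart.

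Of the 10 genes, 3 were called, against 25.3% of all tested genes. TGFB1 fell in DM samples, and TGFB2 and LTBP4 rose, that is 2 of 10 higher and 1 of 10 lower beside 15.0% and 10.3% of all tested genes. A further 3 genes, TGFB3, TGFBR3 and LTBP1, had an adjusted p-value under 0.05 in edgeR with a change of less than 1 on the log2 scale, so that 6 of 10 passed on the adjusted p-value alone, against 63.0% of all tested genes. These were 5 higher and 1 lower, beside 31.6% and 31.4% of all tested genes. In 5 of 10 (TGFB1, TGFB2, TGFB3, TGFBR3 and LTBP4) the CPM of GM and DM samples did not overlap, as for 68.8% of all tested genes. Counted over both directions together, the shares of calls and of genes passing on the adjusted p-value are near those of all genes. Split by direction, more of the 10 passed higher than lower, and this difference was not tested. Without DM replicate 3 again 3 of 10 were called, against 26.0% of all genes then tested. The median log2FC of the 10 genes was 0.43, beside 0.03 for all tested genes.

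**Figure D1:**
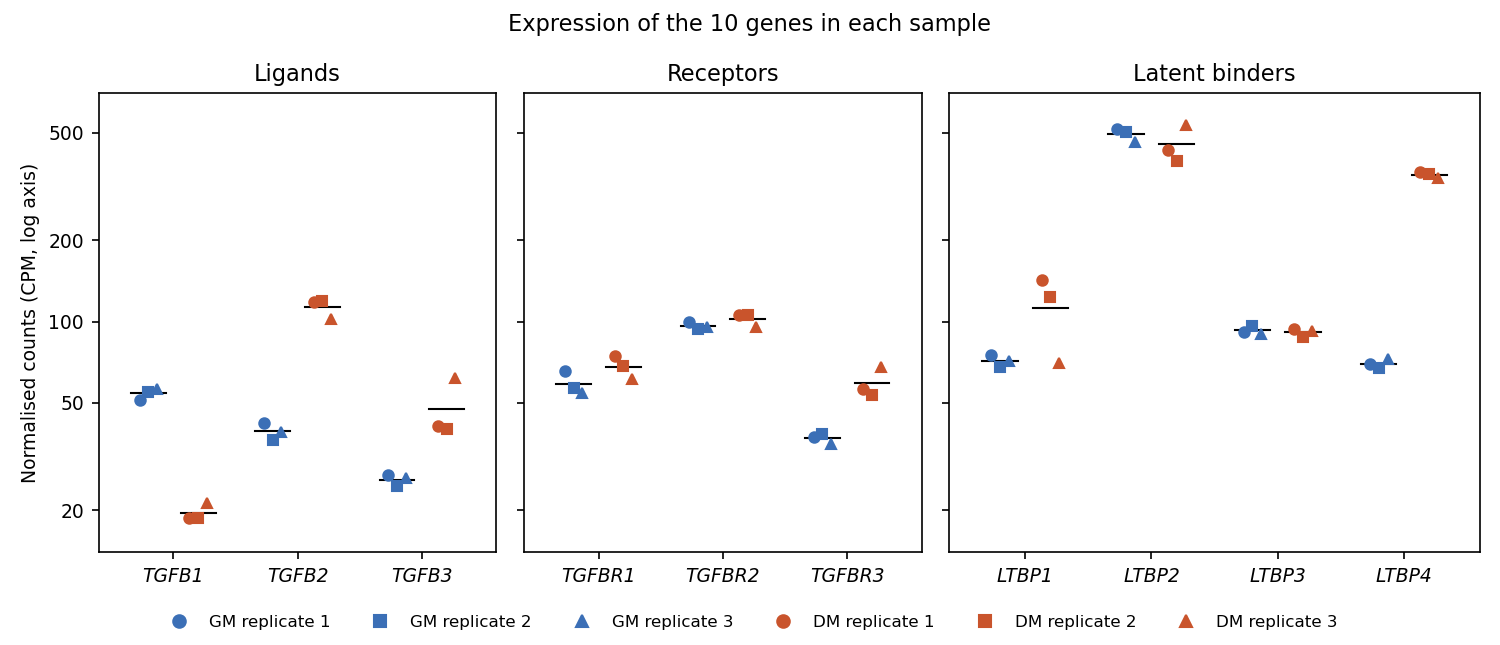
Normalised counts (CPM, log axis) of the 10 genes in each of the 6 samples, with blue symbols for GM samples, orange symbols for DM samples, symbol shapes for the replicate number and black bars for the group means. The GM and DM symbols are far apart for TGFB1, TGFB2 and LTBP4, while for LTBP1 the triangle of DM replicate 3 lies at the level of the GM samples.

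The ligands moved in opposite directions. TGFB1 (ENSBTAG00000020457), the isoform most often studied in wound repair and fibrosis, had 51.1, 54.9 and 56.4 CPM in GM replicates 1, 2 and 3 and 18.7, 18.7 and 21.2 CPM in DM replicates 1, 2 and 3. Every DM sample was below every GM sample. The mean fell from 54.1 ± 2.75 to 19.5 ± 1.47 CPM (SD, n = 3 each), a log2FC of -1.47 (SE 0.08, adjusted p = 9.61e-08 in edgeR), which is 2.77-fold lower. TGFB2 (ENSBTAG00000005359), the isoform that depends most on TGFBR3 for binding, had 42.2, 36.4 and 38.9 CPM in GM replicates 1 to 3 and 118, 119 and 102 CPM in DM replicates 1 to 3. Here every DM sample was above every GM sample. The mean rose from 39.2 ± 2.93 to 113 ± 9.49 CPM, a log2FC of 1.53 (SE 0.08, adjusted p = 9.94e-08 in edgeR), which is 2.89-fold higher.

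TGFB3 (ENSBTAG00000012004), the third isoform, known for its role in palate fusion, had 27.0, 24.6 and 26.3 CPM in GM replicates 1 to 3 and 40.9, 40.1 and 61.8 CPM in DM replicates 1 to 3. The groups did not overlap, but DM replicate 3 stood above the other DM samples. Its log2FC was 0.88 (SE 0.15, adjusted p = 0.000411 in edgeR), short of the fold threshold. It was 0.65 without DM replicate 3, while without DM replicate 2 it was 1.0004 and TGFB3 was called (adjusted p = 0.000353 in edgeR).

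The receptors changed less than the ligands, and none was called. TGFBR1 (ENSBTAG00000018035), the type I receptor kinase, had 65.6, 56.5 and 54.4 CPM in GM replicates 1 to 3 and 74.2, 68.6 and 61.0 CPM in DM replicates 1 to 3, so the groups overlapped. Its log2FC was 0.21 with a 95% interval of 0.02 to 0.39 (adjusted p = 0.0765 in edgeR). The unadjusted p-value in edgeR was 0.051, so the interval is narrower than this test implies. Without DM replicate 3 it was 0.29 (adjusted p = 0.00294 in edgeR), and without GM replicate 1 it was also 0.29 (adjusted p = 0.0288 in edgeR). TGFBR2 (ENSBTAG00000019832), the type II receptor that binds the ligand first, had 99.9, 93.8 and 95.5 CPM in GM replicates 1 to 3 and 106, 106 and 95.2 CPM in DM replicates 1 to 3. These samples overlapped too, and the log2FC was 0.08 with an interval of -0.05 to 0.21 (adjusted p = 0.290 in edgeR). When counts were scaled by library size alone, its sign turned, to -0.013. TGFBR3 (ENSBTAG00000024269), the co-receptor, had 37.5, 38.3 and 35.0 CPM in GM replicates 1 to 3 and 56.1, 53.6 and 67.9 CPM in DM replicates 1 to 3. Its samples did not overlap, and it was 1.60-fold higher in DM samples, a log2FC of 0.68 (SE 0.09, adjusted p = 9.05e-05 in edgeR). The log2FC of TGFBR3 was 0.58 without DM replicate 3.

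Reads of TGFBR1 and TGFBR3 may be mixed with those of other genes. The interval of ENSBTAG00000047836, on the opposite strand, shares 300 bases with that of TGFBR1 but held 491 counts over the 6 samples, against 14408 for TGFBR1. The interval of ENSBTAG00000048081, on the opposite strand, lies over 2394 bases of the interval of TGFBR3 and held 2072 counts over the 6 samples, against 10848 for TGFBR3. ENSBTAG00000048081 was called lower in DM samples, with a log2FC of -1.05. Whether the counting used strand is not given in the sources used here.

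Among the latent binding proteins, LTBP4 had the largest change of the 10 genes. LTBP4 (ENSBTAG00000004757), which takes part in elastic fibre assembly and is known as a genetic modifier of muscular dystrophy in mice, had 69.6, 67.3 and 72.4 CPM in GM replicates 1 to 3. In DM replicates 1 to 3 it had 357, 352 and 340.2 CPM. The spread within each group was small against the gap between them. The mean rose from 69.8 ± 2.59 to 349.6 ± 8.52 CPM, a log2FC of 2.33 (SE 0.06, adjusted p = 1.25e-09 in edgeR), which is 5.01-fold higher. Leaving out any 1 sample gave values from 2.30 to 2.35. The fibroblast markers were higher in the same samples, and their part in the rise of LTBP4 and TGFB2 was not tested.

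LTBP1 (ENSBTAG00000019839), the binding protein first found in the large latent complex, differed between DM samples. It had 75.0, 67.8 and 71.6 CPM in GM replicates 1 to 3 and 143, 124 and 70.4 CPM in DM replicates 1 to 3. DM replicate 3 thus lay within the range of the GM samples, while the other DM samples were above it. The log2FC was 0.65 (SE 0.20, adjusted p = 0.0145 in edgeR), and 0.91 without DM replicate 3. The adjusted p-value from edgeR rose to 0.0610 without GM replicate 2 and to 0.0695 without DM replicate 1.

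LTBP2 and LTBP3 were not called. LTBP2 (ENSBTAG00000021957), which is found on elastic microfibrils and, unlike the other members, is not known to bind latent TGF-β, was the most abundant of the 10 genes by count. It had 515, 505 and 463 CPM in GM replicates 1 to 3 and 432, 395 and 537 CPM in DM replicates 1 to 3. DM replicate 3 was the highest of the 6 samples and the other DM samples the lowest. Its log2FC was -0.12 with an interval of -0.32 to 0.08 (adjusted p = 0.330 in edgeR). Without DM replicate 3 it was -0.25 (adjusted p = 0.00295 in edgeR). LTBP3 (ENSBTAG00000006747), which binds the latent form of every TGF-β isoform, had 91.2, 96.7 and 90.3 CPM in GM replicates 1 to 3 and 93.6, 87.5 and 92.4 CPM in DM replicates 1 to 3. Its log2FC was -0.02 with an interval of -0.15 to 0.10 (adjusted p = 0.751 in edgeR), and the sign turned (0.032) when testing was limited to genes that reached 1 RPKM in over 50% of the samples.

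**Figure D2:**
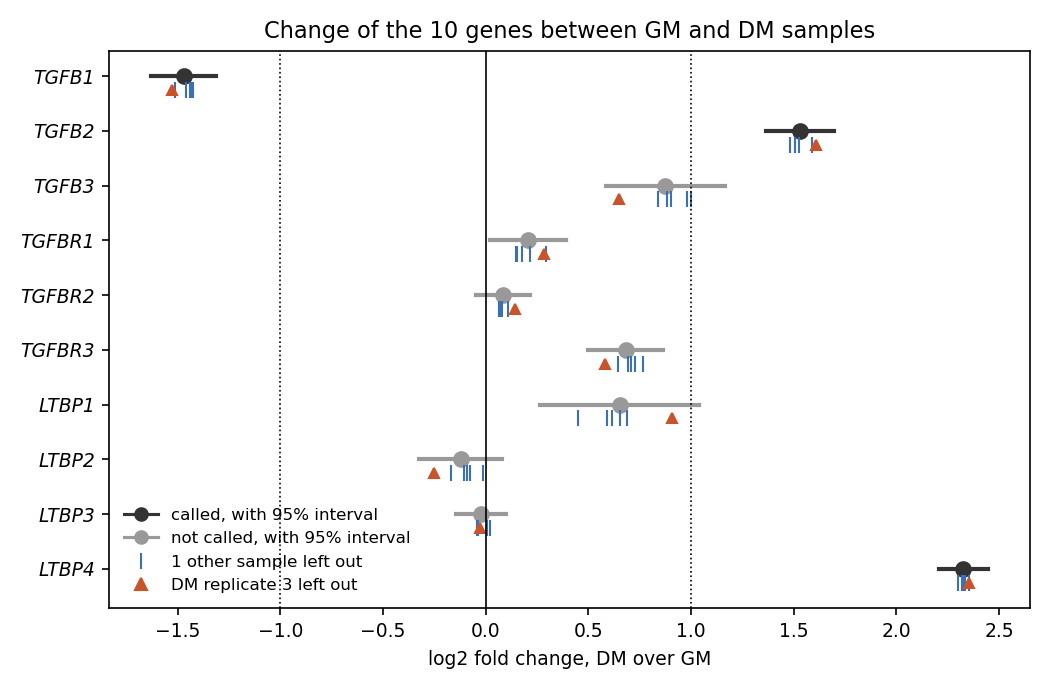
Log2FC of the 10 genes between DM and GM samples (circles, with 95% intervals), black where called and grey where not, with dotted lines at -1 and 1. The intervals are taken from the standard error and the normal distribution, and are narrower than the edgeR test implies. Ticks give the value with 1 other sample left out and triangles the value without DM replicate 3, which lies farthest from the circle for TGFB3 (0.65) and LTBP1 (0.91).

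DM replicate 3 differed from the other DM samples for some of the genes and not for others. Its CPM divided by the mean of DM replicates 1 and 2 was 0.529 for LTBP1, 1.52 for TGFB3, 1.30 for LTBP2 and 1.24 for TGFBR3. For TGFB1, TGFB2, TGFBR1, TGFBR2, LTBP3 and LTBP4 the ratio lay between 0.854 and 1.14. Among 8981 genes averaging 10 CPM or more, 90% of genes had ratios between 0.776 and 1.29 and the median was 1.004. The summed fibroblast markers were lowest in DM replicate 3 among DM samples (1887 CPM) and the summed muscle markers highest (7372 CPM). Single markers differed from these sums. In DM replicate 3 LUM, PDGFRA and MFAP5 were at their lowest among DM samples but DPT and PI16 (the latter under 1 CPM) at their highest. MYH3, ACTA1, DES and CKM were at their highest there but MYOD1, PAX7 and MYOG at their lowest. The part of these markers in the differences was not tested.

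Levels of different genes were compared per length, as RPKM, the authors' counts divided by gene length and by the summed counts of the sample. In GM samples LTBP2 had the highest level (75.5 ± 4.31 RPKM), then TGFB1 (49.99 ± 2.46), TGFBR1 (29.6 ± 3.06), TGFBR2 (22.7 ± 0.792), LTBP3 (18.4 ± 0.655), TGFB2 (17.1 ± 1.32), TGFBR3 (13.8 ± 0.633), LTBP1 (13.8 ± 0.722), LTBP4 (12.5 ± 0.474) and TGFB3 (10.5 ± 0.516). In that order the samples of LTBP3 and TGFB2 overlapped, as did those of TGFBR3 and LTBP1, while all other neighbours were apart. In DM samples LTBP2 (64.9 ± 10.5 RPKM) and LTBP4 (58.4 ± 1.39) overlapped at the top. Below them came TGFB2 (46.2 ± 3.93), TGFBR1 (31.9 ± 2.84) and TGFBR2 (22.5 ± 1.36). From TGFBR2 down through TGFBR3 (20.7 ± 2.69), LTBP1 (20.2 ± 6.61), TGFB3 (17.996 ± 4.69), LTBP3 (16.9 ± 0.364) and TGFB1 (16.85 ± 1.34) every neighbour overlapped. TGFB1 therefore went from rank 2 to rank 10, and LTBP4 from rank 9 to rank 2. The annotated lengths behind these levels run from 1120 bases for TGFB1 to 6770 bases for LTBP2.

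The make-up of each role was then described as the share of each gene in the summed RPKM of its role, which does not depend on the scaling between samples. Among ligands, TGFB1 made up 61.6, 66.3 and 65.3% in GM replicates 1 to 3 and 20.2, 20.2 and 22.0% in DM replicates 1 to 3. TGFB2 made up 24.1, 20.7 and 21.3% in GM replicates 1 to 3 and 60.4, 60.9 and 50.1% in DM replicates 1 to 3. TGFB3 went from 13.5 ± 0.651% to 22.1 ± 5.10%. TGFB1 was thus the main ligand transcript in all GM samples and TGFB2 in all DM samples, and the ratio of TGFB2 to TGFB1 by RPKM went from 0.344 ± 0.0416 to 2.76 ± 0.420. The summed RPKM of the 3 ligands was 76.4 to 79.7 in the GM group and 78.2 to 83.6 in the DM group, with overlap. After TMM scaling the sums were 74.0 to 77.1 and 82.5 to 86.3, without overlap.

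Among receptors the shares moved less. TGFBR3 made up 20.9 ± 1.12% of the summed receptor RPKM in the GM group and 27.6 ± 4.12% in the DM group, and TGFBR2 went from 34.4 ± 1.22% to 30.0 ± 1.40%, both without overlap. TGFBR1 held 44.7 ± 1.82% and 42.4 ± 3.00%, with overlap. Among latent binders, LTBP2 went from 62.8 ± 1.33% to 40.4 ± 5.70% and LTBP4 from 10.4 ± 0.721% to 36.4 ± 1.74%. LTBP3 went from 15.3 ± 0.617% to 10.5 ± 0.0356%, and LTBP1 overlapped between the groups (11.5 ± 0.625% and 12.7 ± 4.26%). The summed RPKM of the latent binders was 115 to 124 in the GM group and 156 to 164 in the DM group. For the 8 shares without overlap an exact two-sided permutation test gave p = 0.1, which 3 samples against 3 cannot go below, and the adjusted value over the 10 shares (Benjamini-Hochberg) was 0.125. The shares of TGFBR1 and LTBP1 gave p = 0.4 and p = 0.8 in the same exact permutation test, and 0.444 and 0.8 after adjustment.

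**Figure D3:**
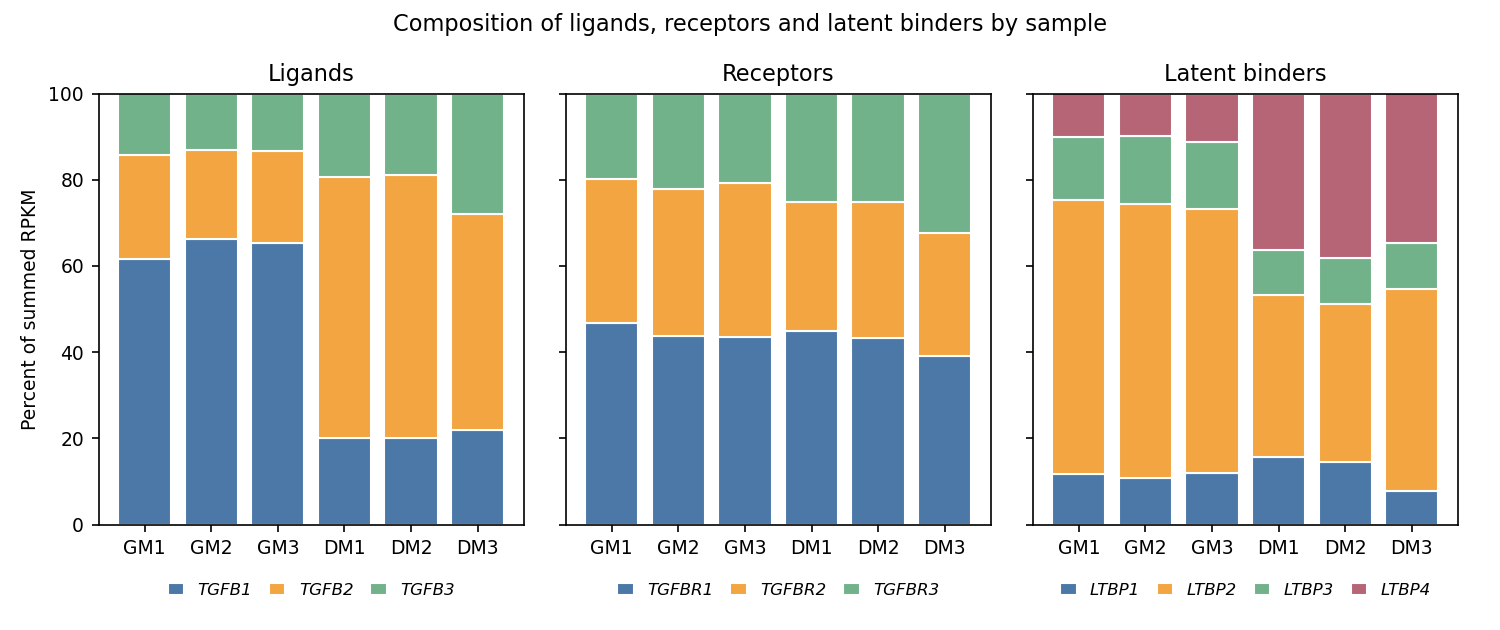
Percent of the summed RPKM of the ligands, receptors and latent binders that each gene made up in each sample (stacked bars, GM1 to GM3 and DM1 to DM3). TGFB1 holds 61.6 to 66.3% of the ligand sum in the GM group and 20.2 to 22.0% in the DM group, and LTBP4 grows from 9.90 to 11.2% of the latent binder sum to 34.8 to 38.3%.

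The table of mRNA transcripts lists 14 transcripts of these genes. Reads were counted on every transcript they overlap, since the summed transcript counts came to 194% of the gene counts for TGFBR2, 187% for LTBP1 and 234% for LTBP4, and to 100% for the genes with 1 transcript. The 14 are therefore not independent of the gene counts. Of these transcripts edgeR called 5, against 25.6% of all 16352 tested transcripts. They were the TGFB1 transcript (lower), the TGFB2 transcript (higher) and all 3 transcripts of LTBP4 (higher, with log2FC of 2.28, 2.28 and 2.47). The 4 higher and 1 lower stand beside 15.5% and 10.1% of all tested transcripts. On the adjusted p-value alone 9 of 14 passed, 8 higher and 1 lower, against 64.6% of all tested transcripts, with 32.3% in each direction.

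Within LTBP1 and LTBP4 the shorter transcript gained on the longer in DM samples. Counts on the LTBP1 transcript of 4131 bases (ENSBTAT00000055559) were 83.0, 83.4 and 86.6% of those on the transcript of 5130 bases (ENSBTAT00000026435) in GM replicates 1 to 3. In DM replicates 1 to 3 they were 95.7, 97.9 and 91.7%, all above the GM samples. For LTBP4, counts on the transcript of 3840 bases (ENSBTAT00000063872) were 36.8 ± 1.44% of those on the transcript of 4977 bases (ENSBTAT00000065855) in the GM group and 42.0 ± 1.40% in the DM group, again without overlap. The transcript of 4884 bases of LTBP4 held 99.8% of the counts of the longest in both groups, and the shorter transcript of TGFBR2 held 94.9 ± 0.616% and 94.0 ± 0.820%. These ratios were chosen after the counts were seen and were not tested. LTBP1 is known to have a long and a short form from separate promoters, and the table does not say which form each transcript is.

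Some of the genes lie near each other in the genome. The tables give cattle coordinates without a build. LTBP4 (chromosome 18, 50173268 to 50202104, plus strand) and TGFB1 (chromosome 18, 50771355 to 50785670, minus strand) are 569 kb apart and moved in opposite directions. Of the 25 genes listed between them 18 are protein-coding and 22 were tested. Among these 0 were called higher and 6 lower, beside 15.0% higher and 10.3% lower among all tested genes. The 6, named after their values were seen, were AXL, SNRPA, the microRNA genes bta-mir-2887-2 and bta-mir-2904-1, and ENSBTAG00000001350 and ENSBTAG00000047196. The place of LTBP4 and TGFB1 in the buffalo annotation was not looked up. LTBP2 (chromosome 10, 86186700 to 86294121, minus strand) and TGFB3 (chromosome 10, 88242180 to 88266347, minus strand) are 1948 kb apart. Between these 22 of 25 genes were tested, with 4 called higher (FOS, C14orf1, ZC2HC1C and a gene without symbol) and 3 lower (PGF and 2 genes without symbol), named after their values were seen. In the buffalo RefSeq annotation (NDDB_SH_1) LTBP2 and TGFB3 also lie on a shared chromosome, with 22 protein-coding genes between them. The others lie apart. TGFB2 is on chromosome 16 (22495736 to 22588280, plus strand), TGFBR1 on chromosome 8 (64570093 to 64641796, plus strand) and TGFBR2 on chromosome 22 (5141232 to 5233083, plus strand). TGFBR3 is on chromosome 3 (51661004 to 51866717, plus strand), LTBP1 on chromosome 11 (15493304 to 15947670, plus strand) and LTBP3 on chromosome 29 (44380356 to 44400578, minus strand).

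Genes that process, store or release latent TGF-β were compared as a list of 19, of which 18 were tested. Here 9 were called, 5 higher and 4 lower, against 25.3% of all tested genes (15.0% higher and 10.3% lower), and the median log2FC of the list was 0.59. THBS1 (thrombospondin 1), which activates latent TGF-β by binding its propeptide, had 4374 to 5044 CPM in GM samples and 733 to 805 CPM in DM samples, a log2FC of -2.63 (SE 0.07). MMP2, a secreted gelatinase that can release TGF-β from matrix, rose from 1525 ± 12.2 to 6713 ± 602.5 CPM, a log2FC of 2.14 (SE 0.07). ITGB6, the β subunit of the TGF-β activating integrin αvβ6, rose from a low level of 1.87 ± 0.137 to 7.86 ± 0.893 CPM. Chosen after their values were seen, ITGB8, the subunit of the other activating integrin αvβ8, fell from 13.6 ± 0.424 to 4.595 ± 1.09 CPM. LRRC32 (GARP), which holds latent TGF-β at the cell surface in place of an LTBP, rose from 12.5 ± 1.19 to 43.1 ± 15.8 CPM. In DM replicates 1 to 3 LRRC32 had 35.7, 32.4 and 61.2 CPM. The other called genes, also named after their values were seen, were FN1 (fibronectin, to which LTBP1 attaches in the matrix) and ITGB5 (an integrin subunit), which rose with log2FC of 1.97 and 1.12. PLAU (urokinase) and FURIN (the protease that cuts the TGF-β precursor) fell, with log2FC of -2.01 and -1.04.

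In the list of co-receptors and extracellular TGF-β binding proteins 9 of 10 genes were tested and 4 were called, 3 higher and 1 lower, against the same 25.3% of all tested genes (15.0% higher and 10.3% lower), and the median log2FC was 0.86. ASPN (asporin), a small leucine-rich proteoglycan that binds TGF-β1, rose from 2.73 ± 0.425 to 147 ± 9.15 CPM, a log2FC of 5.76 (SE 0.11). DCN (decorin), a related proteoglycan that binds TGF-β, had 437 to 465 CPM in GM samples and 2734, 2584 and 1614 CPM in DM replicates 1 to 3. A2M, a plasma protease inhibitor that also binds growth factors, rose from 2.75 ± 0.745 to 14.2 ± 1.35 CPM. The gene called lower, named after its values were seen, was BAMBI, a decoy receptor without a kinase domain, at 5.61 CPM in the GM group and 1.55 CPM in the DM group (log2FC -1.85). DCN is also an abundant fibroblast gene, and it was lowest in DM replicate 3 among DM samples, as the summed fibroblast markers were. The part of the latter in these rises was not tested.

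Of the list of SMADs and their intracellular regulators 18 of 20 genes were tested and 3 were called, 1 higher and 2 lower, which is 16.7% of those tested against 25.3% of all genes, and the median log2FC was -0.13. SMAD2 and SMAD3, the SMADs that TGFBR1 phosphorylates, had log2FC of 0.43 (SE 0.07, adjusted p = 0.000348 in edgeR) and 0.46 (SE 0.09, adjusted p = 0.00105 in edgeR). SMAD4, their shared partner, had 80.2 to 88.1 CPM in GM samples and 75.8 to 84.0 CPM in DM samples, with overlap. SMAD7, an inhibitor of TGFBR1 that TGF-β itself induces, had 24.3, 23.99 and 22.2 CPM in GM replicates 1 to 3 and 10.3, 10.8 and 15.6 CPM in DM replicates 1 to 3. Its log2FC of -0.94 missed the fold threshold, but it was -1.15 without DM replicate 3 and -1.04 with library size alone, and SMAD7 was called in both. SMURF2, a ubiquitin ligase that SMAD7 brings to the receptor, fell from 234 ± 16.9 to 65.0 ± 1.19 CPM, and NEDD4L, a related ligase, fell from 98.7 ± 3.00 to 38.8 ± 1.25 CPM. LDLRAD4, a membrane protein that holds SMAD2 and SMAD3 back from the receptor, rose from 6.76 ± 0.275 to 25.5 ± 6.79 CPM. In DM replicates 1 to 3 LDLRAD4 had 22.9, 20.5 and 33.2 CPM. Its log2FC was 1.92, and 1.69 without DM replicate 3.

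Genes known to be induced by TGF-β in mesenchymal cells were compared as a list of 24, all tested. Of these 10 were called, 6 higher and 4 lower, beside 25.3% of all tested genes called, 15.0% higher and 10.3% lower. The median log2FC was -0.14. IL11, a cytokine of fibroblasts, fell from 65.4 ± 8.48 to 1.13 ± 0.106 CPM, while CDKN1A, the cell cycle inhibitor p21, rose from 53.6 ± 8.40 to 266 ± 25.6 CPM. Also called higher, and named after their values were seen, were the collagen genes COL1A1, COL1A2 and COL3A1 (log2FC 1.54, 1.13 and 2.24), which fibroblasts express strongly, ELN (elastin, 1.42) and the cell cycle inhibitor gene CDKN2B (1.71). The matrix genes TGFBI and TNC fell, with log2FC of -1.31 and -1.03. TNC, just past the fold threshold, had 1789, 1654 and 2781 CPM in DM replicates 1 to 3.

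**Figure D4:**
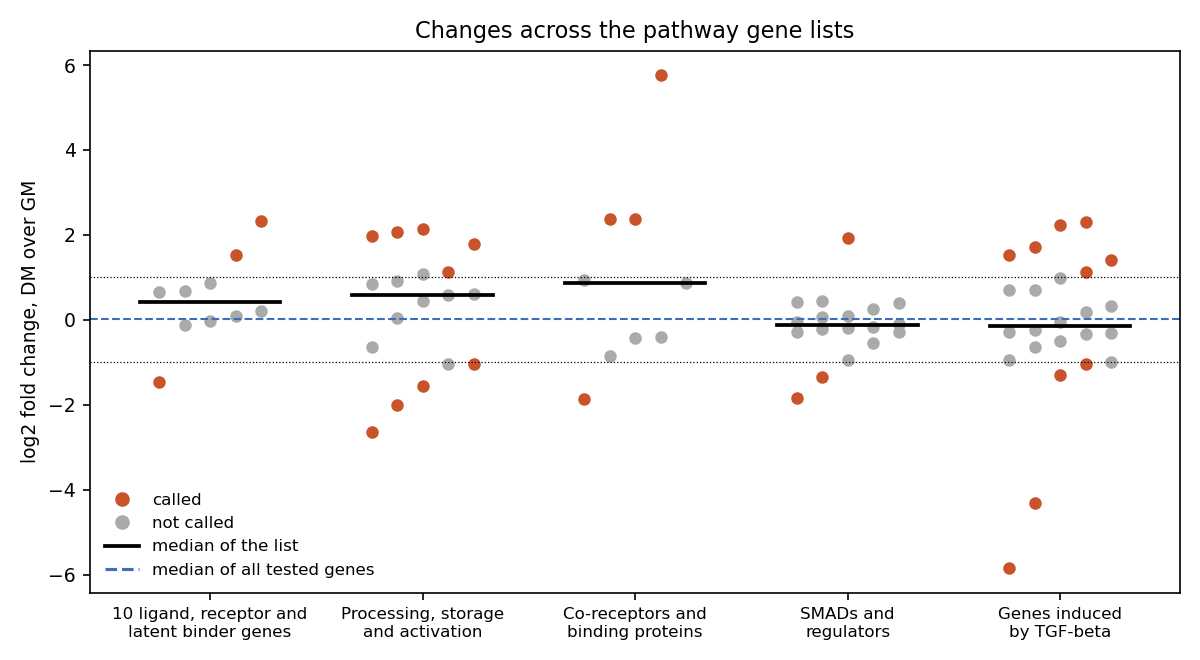
Log2FC between DM and GM samples of each tested gene in the 10 genes and the 4 pathway lists (orange where called, grey where not), with black bars for the median of each list, a dashed line for the median of all tested genes (0.03) and dotted lines at -1 and 1. The medians of the lists lie between -0.14 and 0.86, and every list holds called genes on both sides of 0.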

How the data were processed

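PolyA-Seq data of 6 samples (3 GM and 3 DM) were used. The authors aligned reads with HISAT2, and the deposited columns hold raw counts per gene and per mRNA transcript, with RPKM computed by the authors from these counts, the deposited length in bases and the summed counts of a sample. The paper names the buffalo genome, the tables list cattle Ensembl identifiers, and the submitters' processing notes name Bowtie 0.12.2 and the mouse builds mm8 and mm9, so the genome build of the tables is not known. Files of the authors' own fold changes, p-values and q-values, and the ncRNA table, were not used. Groups came from the sample titles, and 0 sample columns were left unmapped.

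Features whose counts summed to 10 or more were tested in R 4.3.3 with edgeR 4.0.16 (TMM, glmQLFit and glmQLFTest, all features of a table). On simulated data with 200 features changed 4-fold, 188 of the gene table's 15576 and 195 of the mRNA table's 16352 were recovered, with 6 unchanged features called in each. The changed features were not among those with the fewest counts, and as many rose as fell. In the data 25.3% of tested genes were called, many with smaller changes, so these figures need not hold for the data. Shares were compared by exact permutation. Tables were summarised with Python 3.11.15 and pandas 2.3.3. Replicates differed by more than sampling noise (chi-square per degree of freedom 6.22 to 41.4). Alternatives were DESeq2 1.42.0, other scalings, filters and thresholds, a replicate block and each sample left out.

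The 10 genes, the 4 pathway lists and the 6 marker lists were chosen with earlier results of these data known. Named in the text are the 10 genes, SMAD2, SMAD3, SMAD4, SMAD7 and, in each pathway list, the 3 called genes of largest change with a mean of at least 1 CPM. A gene that this rule names is not reported here. ITGB3, ENG, PPM1A and FKBP1A have no row under these symbols, and CCN2 was read as CTGF.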

Additional observations from a re-analysis of the deposited data

How the results depend on the processing

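With the alternatives that change 1 choice at a time, the calls of TGFB1, TGFB2 and LTBP4 held under every alternative run, and DESeq2 called 3 of the 10 genes as edgeR did. With an adjusted p-value under 0.05 and no minimum fold change, 9813 of 15576 genes (63.0%) were called. So were 6 of the 10 genes and 9 of their 14 transcripts, the latter against 64.6% of all tested transcripts. That threshold called 15 of 18 tested genes of the processing, storage and activation list and 9 of 9 co-receptors and binding proteins. It called 12 of 18 SMADs and regulators and 19 of 24 genes induced by TGF-β, all beside the same 63.0% of all tested genes. Limited to genes that reached 1 RPKM in over 50% of the samples, 2197 of 11587 genes and 2 of 7 co-receptors and binding proteins were called, with fewer genes tested (A2M and BAMBI did not reach that limit). Leaving out each sample in turn gave 3647 to 3995 genes, 3 to 4 of the 10 genes (4 without DM replicate 2), 5 to 6 transcripts and, in the lists as ordered above, 8 to 10, 4 to 4, 3 to 4 and 10 to 12 calls.

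Alternatives of log2FC were run for the 10 genes, SMAD2, SMAD3, SMAD4, SMAD7 and the list genes named by rule, and not for genes named after their values were seen. Among those run the sign turned for TGFBR2 and LTBP3. TGFBR2 was at -0.013 with library size alone. LTBP3 was at 0.032 under the RPKM limit, at 0.0066 without GM replicate 2 and at 0.020 without DM replicate 2, and ranged from -0.044 to 0.020 with each sample left out. The difference in the share of LTBP1 ranged from -0.331 to 3.61 percentage points with each sample left out, and was negative without DM replicate 1. The cause was not tested. Shares of raw counts kept the direction of all 10 shares. The replicate numbers gave no sign of pairing (r of deviations -0.0467 to -0.00813 for equal numbers and -0.0132 to 0.0250 for unequal numbers). With 3 samples in a group these deviations depend on each other, and the labels do not give the origin of each sample. Whether the samples are paired therefore cannot be told. With a replicate block 3837 of 15576 genes and 3 of the 10 genes were called. The block gave 9 of 18, 4 of 9, 3 of 18 and 11 of 24 calls in the 4 lists and 5 of 14 transcripts. Paired sign changes of the shares cannot go below an exact p = 0.25. With at least 630 counts for each of the 10 genes in every sample, the spread between 3 samples, rather than depth, limits what can be told apart.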
